A study of Homo sapiens with 12 samples.

Results

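To describe which RNAs Argonaute 2 (AGO2) holds in myeloid leukemia cells that carry no miR-143 vector, the AGO2 precipitate of control-vector cells was compared with the mock precipitate of the same cells. These 2 groups, control_AGO and control_IgG, hold 3 samples each and make up 6 of the 12 samples of the series. The other 6 come from cells with a miR-143 vector (miR143_AGO and miR143_IgG) and are given beside a result where they bear on it. Of the 61782 gene rows of the deposited tables, 9919 were compared, namely those with 1 FPKM or more in either control group, where FPKM is the number of sequenced fragments relative to transcript length and library size. The ratio is log2 of (FPKM + 1) in control_AGO over (FPKM + 1) in control_IgG.

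All cells were K562, an erythroleukemia line that, per the study's methods, carried an inducible C/EBPα-ER construct in this experiment. Both populations were infected with a lentivirus and kept under puromycin, the control population with pLV-control (Biosettia, mir-p000) and the other with pLV-miR-143. RNA was recovered with an antibody against AGO2 or with unspecific immunoglobulin. Only 1 average per group was deposited. Each difference below is a ratio of the authors' averages without a replicate check, and nothing could be tested against the spread of the 3 experiments.

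AGO2 is the protein at the core of the RNA-induced silencing complex. It carries a mature miRNA, whose seed at the 5′ end pairs with short complementary sites, mostly in the 3′ UTR of an mRNA. GW182 proteins (TNRC6A, TNRC6B and TNRC6C) bind Argonaute on the target and recruit deadenylases, after which the mRNA is translated less and degraded. Unspecific immunoglobulin recovers abundant RNA that sticks to beads or antibody and serves as the background of such a precipitation.

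AGO2 precipitates of control cells were poorer in small structured RNA and, as a share of summed FPKM, richer in mRNA than the mock precipitates. Among the mRNAs with high ratios were those of BTG2, SOCS3, E2F1, TNRC6A and XPO5, while most rows of cytosolic ribosomal proteins, histones and nuclear respiratory chain genes were at least 2-fold lower. Over all rows the median log2 ratio was −0.19, with quartiles of −1.59 and 1.38 and a standard deviation across rows of 2.08. In control_AGO 434 rows (4.38%) were higher by 10-fold or more and 494 (4.98%) were lower by as much. At 2-fold, 3425 rows (34.5%) were higher and 3592 (36.2%) were lower. This balance depends on the scaling. With the upper quartiles of both groups set equal, 581 rows were higher and 314 lower at 10-fold, and 3914 and 2883 at 2-fold, and with equal sums over coding rows these were 578, 314, 3909 and 2893. In miR-143 cells the shares were 1.6% and 3.67% at 10-fold, and 26.6% and 33.5% at 2-fold, of 10643 rows. List and class values below are read against these shares, and are also given as the median of the list minus that of all rows.

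Many of the large ratios rest on a value of 0. The mock value was 0 for 290 of the 434 higher ones (66.8%), and the AGO2 value was 0 for 165 of the 494 lower ones (33.4%). Among 7449 rows of 1 protein-coding gene, 1325 were listed at 0 in the mock precipitate and 279 in the AGO2 precipitate. Ratios differed with level. The 3348 coding rows with a mean below 5 FPKM had a median log2 ratio of 0.64, of which 1184 were at 0 in control_IgG, whereas the 2431 rows between 5 and 20 FPKM had a median of −0.65, the 1424 rows between 20 and 100 FPKM one of −0.40, and the 246 rows above that one of −0.76. For some lists the values over rows with a mean of 20 FPKM or more are therefore given as well (2219 rows, median −0.63).

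The classes of RNA differed most. Small structured RNA other than snoRNA, which includes spliceosomal RNA, 7SK and the RNA of the signal recognition particle, made up 76.02% of all FPKM in the mock and 37.5% in the AGO2 precipitate. Among 33 such rows, control_AGO was at least 10-fold lower for 23 and at least 10-fold higher for 2. RNU4-2, the U4 RNA of the spliceosome, was at 675467 FPKM in control_IgG and 47322 FPKM in control_AGO, a plain ratio of 14.3 in favour of the mock precipitate. RN7SK, which restrains transcription elongation, was at 280876 and 23862 FPKM, and RN7SL1, the RNA of the signal recognition particle, at 258306 and 11180 FPKM. The lowest log2 ratio among the 7 RNAs of small ribonucleoproteins was that of RNY1, a Y RNA, with 92640 FPKM in control_IgG and 362 FPKM in control_AGO. All 7 were lower in control_AGO, and their median log2 ratio of −4.05 was accompanied by one of −4.99 in miR-143 cells.

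**Figure D1:**
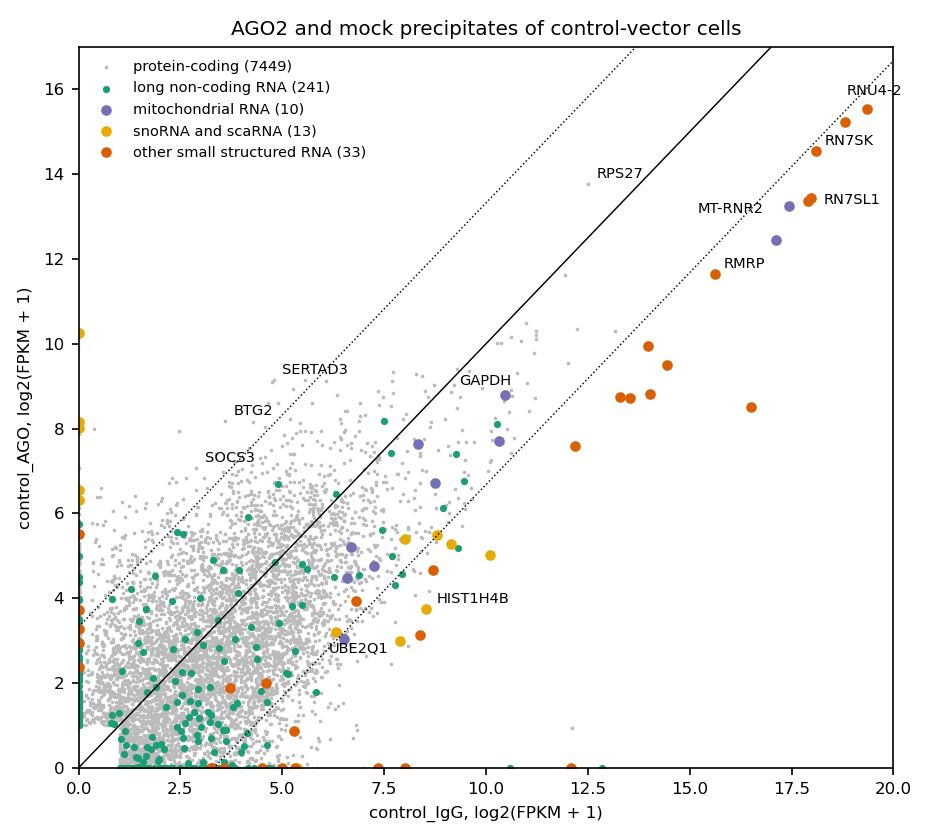
Average values of control_IgG (horizontal) and control_AGO (vertical) on the log2(FPKM + 1) scale, 1 point per row, coloured by RNA class, with equality as a solid line and 10-fold differences as dotted lines. Of the 33 small structured RNAs, 23 lie at or below the lower dotted line, while coding rows spread on both sides of equality and many points lie on the axes, where 1 group is listed at 0.

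Mitochondrial RNA behaved similarly, with 9 of 10 rows at least 2-fold lower in control_AGO. The ribosomal RNAs MT-RNR1 (141972 and 5543 FPKM in control_IgG and control_AGO) and MT-RNR2 (178102 and 9670 FPKM) were lower by plain ratios of 25.6 and 18.4. The mRNAs were closer to equality, from MT-CYB (319.98 and 199 FPKM, log2 ratio −0.68) to MT-ND6 (90.5 and 7.24 FPKM, log2 ratio −3.47). Both rRNAs and MT-ND6 were the 3 rows at least 10-fold lower.

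Stand-alone snoRNA and scaRNA rows split in opposite directions. Among 13 rows, a 10-fold difference was seen upward in 5 and downward in 5. The higher rows were all listed at 0 in control_IgG, the largest being SNORA71A, a guide of pseudouridylation, with 1215 FPKM in control_AGO. It was again listed at 0 in miR143_IgG and at 909 FPKM in miR143_AGO, whereas SNORA76A (256 FPKM in control_AGO) and SNORA5A (93.5 FPKM) were listed at 0 in all other groups. The lower rows included the Cajal body RNAs SCARNA2 (1094 FPKM in control_IgG and 31.6 FPKM in control_AGO), SCARNA10 (236 and 6.99 FPKM) and SCARNA7 (366 and 12.5 FPKM).

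Protein-coding rows made up 7.97% of all FPKM in the mock and 42.8% in the AGO2 precipitate, although their median log2 ratio of −0.12 lay close to that of all rows. Their summed FPKM was lower in the AGO2 precipitate, at 157812 against 225602 FPKM in the mock. That of small structured RNA other than snoRNA went from 2152140 FPKM in the mock to 138088 FPKM in the AGO2 precipitate. Since FPKM is relative to transcript length, these shares are not shares of fragments. The sum over all 61782 rows was 2831020 FPKM in the mock precipitate and 368552 FPKM in the AGO2 precipitate. FPKM is scaled within a library, and in bulk precipitates a larger share of RNA bound and a larger share of cells with bound RNA cannot be told apart. The 241 long non-coding RNAs had a median of −0.74 and the 374 pseudogenes one of −0.94 relative to all rows. For the long non-coding RNAs the direction was not stable, since their value was 0.031 without a filter on low rows and 0.20 in miR-143 cells.

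Among coding rows with at least 5 FPKM in each control group, the highest ratio was that of BTG2, an antiproliferative gene whose protein binds the CCR4-NOT deadenylase (chr1:203305491-203309602, plus strand). It was at 11.1 FPKM in control_IgG and 289 FPKM in control_AGO, a log2 ratio of 4.59. In miR-143 cells, which share no sample with these, the averages were 5.31 and 274 FPKM. TNFRSF12A, the receptor of the cytokine TWEAK, was at 25.9 FPKM in the mock and 550 FPKM in the AGO2 precipitate (log2 ratio 4.35). SERTAD3, a transcriptional coregulator, was at 26.7 and 561 FPKM (log2 ratio 4.34). These were the 3 highest ratios under this rule, and all had a log2 ratio over 3 in miR-143 cells as well.

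The next in order were signalling and transport genes. SEMA4C, a membrane-bound semaphorin, was at 5.21 and 113 FPKM in control_IgG and control_AGO. SOCS3, the feedback inhibitor of JAK-STAT signalling, was at 6.40 and 132 FPKM (chr17:78356778-78360077, minus strand). XPO5, which exports pre-miRNA from the nucleus, was at 9.33 and 167 FPKM, and CITED2, a coregulator of CBP and p300, at 23.9 and 391 FPKM. The remaining 3 were STARD3 (18.3 and 283 FPKM), a cholesterol-binding protein of late endosomes, the creatine transporter SLC6A8 (7.47 and 113 FPKM) and the Golgi adaptor GGA3 (28.98 and 386 FPKM). All 10 were also higher in the AGO2 precipitate of miR-143 cells, with log2 ratios from 1.34 (STARD3) to 6.68 (TNFRSF12A).

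**Figure D2:**
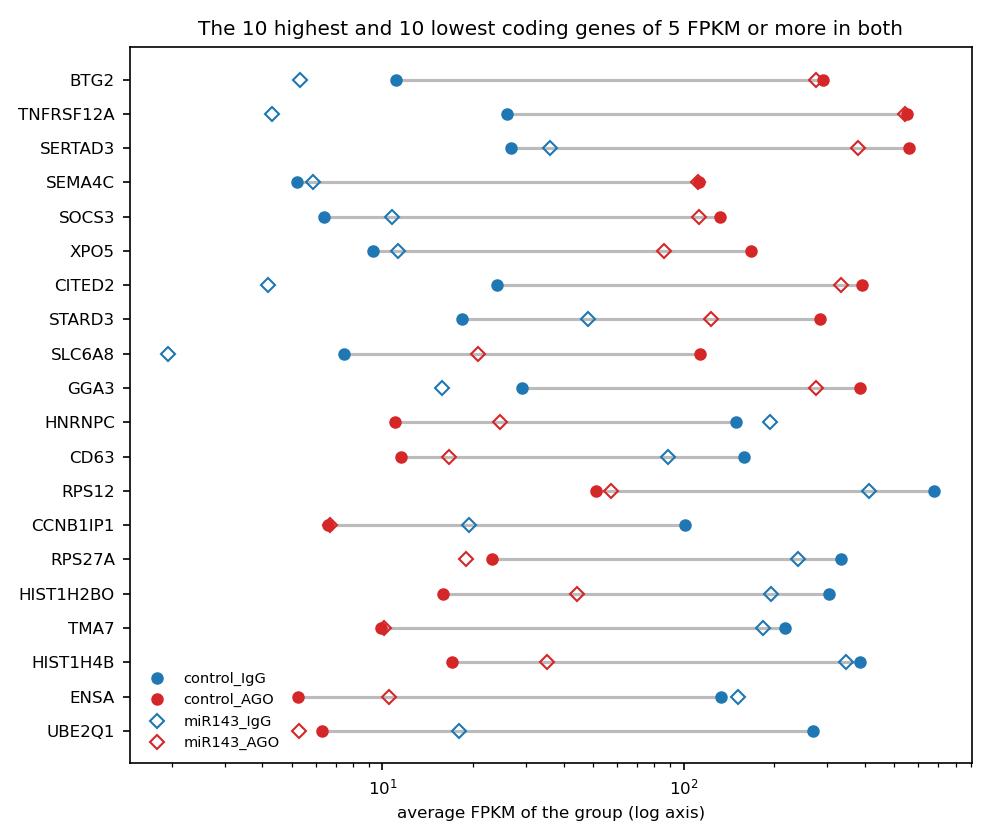
Average FPKM (log axis) of the 10 coding genes with the highest and the 10 with the lowest ratio among those with at least 5 FPKM in each control group, with filled circles for control cells, open diamonds for miR-143 cells, blue for mock and red for AGO2 precipitates. In both cell populations each of the upper 10 genes has its AGO2 value to the right of its mock value and each of the lower 10 to the left, and UBE2Q1 and CCNB1IP1 have lower mock values in miR-143 cells.

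At the other end, UBE2Q1, a ubiquitin-conjugating enzyme, had 269.5 FPKM in control_IgG but 6.29 FPKM in control_AGO, a log2 ratio of −5.21. Its mock value in miR-143 cells was only 18.0 FPKM, and the log2 ratio there was −1.59. ENSA, an inhibitor of the phosphatase PP2A in mitosis, was at 133 and 5.25 FPKM. Short mRNAs of the translation and chromatin machinery made up much of the rest, with the histones HIST1H4B (384 and 17.05 FPKM) and HIST1H2BO (304 and 15.9 FPKM), the translation-associated TMA7 (216 and 9.87 FPKM) and the ribosomal proteins RPS27A (333 and 23.1 FPKM) and RPS12 (676 and 51.2 FPKM). CCNB1IP1 (100.9 and 6.62 FPKM), the tetraspanin CD63 (159 and 11.5 FPKM) and the hnRNP protein HNRNPC (149 and 10.97 FPKM) completed the 10. All 10 were lower in miR143_AGO than in miR143_IgG too.

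The most abundant coding RNA of control_AGO was a ribosomal protein mRNA. RPS27 was at 5855 FPKM in control_IgG and 13949 FPKM in control_AGO, and at 4705 and 17432 FPKM in miR-143 cells. Of the 60 cytosolic ribosomal protein rows compared, only RPS27L and RPL26L1, both listed at 0 in the mock precipitate, below 5 FPKM in control_AGO and lower in the AGO2 precipitate of miR-143 cells, had a ratio above its 1.25 (log2). Other high levels were those of RPLP0 (3169 FPKM in control_AGO) and RPL35 (1432 FPKM), both lower than in the mock precipitate, with log2 ratios of −0.30 and −0.50. FTL, the light chain of ferritin, had 1037 FPKM in control_AGO and 1315 FPKM in control_IgG, but was higher in the AGO2 precipitate of miR-143 cells (log2 ratio 0.89).

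Genes of the silencing complex itself were then considered. Of 6 Argonaute and GW182 genes with a row of their own, 5 were at least 2-fold higher in control_AGO (34.5% of all rows) and 1 was lower. TNRC6A (chr16:24610209-24827632, plus strand) was at 2.10 FPKM in control_IgG and 35.8 FPKM in control_AGO, a log2 ratio of 3.57, and at 1.28 and 25.9 FPKM in miR-143 cells. TNRC6B was at 0.517 and 6.602 FPKM (log2 ratio 2.32), whereas TNRC6C was at 22.4 and 1.88 FPKM (log2 ratio −3.02). TNRC6C had the opposite direction in miR-143 cells, with 0.348 FPKM in the mock and 2.44 FPKM in the AGO2 precipitate. Of the Argonautes, AGO4 was listed at 0 in the mock precipitate but at 13.1 FPKM in control_AGO, AGO3 was at 0.539 and 3.51 FPKM, and AGO1 at 3.07 and 7.72 FPKM. AGO3 and AGO4 were higher in the mock precipitate in miR-143 cells. None of the 6 reached a mean of 20 FPKM, and AGO2 shares its row with another transcript.

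The 15 miRNA biogenesis genes compared showed no common direction, with 4 at least 2-fold higher and 4 at least 2-fold lower. XPO5 stood apart with its log2 ratio of 4.02. MOV10, an RNA helicase of the silencing complex, was at 2.93 and 15.1 FPKM in control_IgG and control_AGO, and GEMIN4 at 16.7 and 39.2 FPKM. In miR-143 cells MOV10 had the opposite direction, with 14.7 FPKM in the mock and 8.01 FPKM in the AGO2 precipitate. DICER1, which cuts pre-miRNA, was at 9.11 and 10.4 FPKM. The partners of the processing enzymes were lower in control_AGO, with DGCR8 at 16.6 and 2.66 FPKM, PRKRA at 53.6 and 7.71 FPKM and TARBP2 at 46.9 and 15.9 FPKM. HSP90AA1, a chaperone that helps to load Argonaute, was at 23.6 and 2.40 FPKM, while HSPA8 was at 592 and 520.4 FPKM.

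Of 25 deadenylation and decapping genes, 10 were at least 2-fold higher (40%, against 34.5% of all rows) and 6 at least 2-fold lower (24%, against 36.2%). Their median was 0.88 relative to all rows. Besides BTG2, GIGYF1, which acts in translational repression through the cap-binding protein 4EHP, was at 2.15 FPKM in control_IgG and 74.7 FPKM in control_AGO (log2 ratio 4.59). The decapping genes DCP2 (93.8 and 10.99 FPKM) and EDC3 (30.2 and 3.48 FPKM) and the deadenylase CNOT7 (23.4 and 2.63 FPKM) were lower. For DCP2 and EDC3 the ratio lay above 0 in miR-143 cells (log2 ratios 0.10 and 2.00). Over rows with a mean of 5 FPKM or more, the median of the list relative to all rows was −0.08, so that its direction depends on the filter.

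Mostly on the side of AGO2 were known targets of the miR-17-92 cluster, an oncogenic miRNA cluster active in many blood cancers. Of 29 members compared, 19 were at least 2-fold higher in control_AGO (65.5%, against 34.5% of all rows) and 3 were at least 2-fold lower, and 7 were at least 10-fold higher. The median log2 ratio was 1.46, or 1.65 above that of all rows. In miR-143 cells 26 of them were compared, with a median of 1.81, and 18 had a ratio above 0 in both populations, against 1 below 0 in both. All 7 members with a mean of 20 FPKM or more were at least 2-fold higher. The list was written with earlier results of these data known, and its values are a description.

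The members divide into inhibitors of cytokine signalling, cell cycle genes and others. SOCS1, which like SOCS3 inhibits JAK kinases, was at 14.2 FPKM in control_IgG and 172 FPKM in control_AGO, and STAT3, the transcription factor they restrain, at 4.92 and 57.0 FPKM. E2F1, which drives entry into S phase (chr20:33675683-33686404, minus strand), was at 1.03 and 34.04 FPKM, a log2 ratio of 4.11 (3.92 in miR-143 cells). CDKN1A, the CDK inhibitor p21, was listed at 0 in the mock precipitate but at 10.2 FPKM in control_AGO. It was higher in the AGO2 precipitate of miR-143 cells as well.

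Further members with high ratios were ZBTB4, a transcriptional repressor, at 2.09 and 40.01 FPKM (log2 ratio 3.73), the proapoptotic BCL2L11 at 0.690 and 16.8 FPKM, and TXNIP, an inhibitor of thioredoxin and glucose uptake, at 36.9 and 220 FPKM. The lowest were MAP3K2 (8.40 and 1.81 FPKM), RBL1 (6.23 and 2.00 FPKM) and KAT2B (2.66 and 0.588 FPKM). The ratios of MAP3K2 and KAT2B lay above 0 in miR-143 cells. CCND1, a G1 cyclin on several target lists, was at 8.89 and 8.26 FPKM, with a log2 ratio of 0.50 in miR-143 cells.

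Other target lists were less uniform. Of 11 miR-16 targets, 7 were at least 2-fold higher and 0 at least 2-fold lower, but 5 members were listed at 0 in control_IgG, and their median in miR-143 cells was only 0.37. CCND3, a G1 cyclin, was at 42.4 FPKM in control_IgG and 244 FPKM in control_AGO, and the kinase WEE1 was listed at 0 and at 9.69 FPKM. WEE1 was lower in the AGO2 precipitate of miR-143 cells (29.6 FPKM in the mock and 15.2 FPKM in the AGO2 precipitate). The 22 let-7 targets had a median of −0.03 relative to all rows, with 6 at least 2-fold higher and 7 lower. It was 0.59 with a mean of 5 FPKM or more, but −0.45 with a mean of 20 FPKM or more. Of the 7 let-7 targets left there, 0 were at least 2-fold higher and 4 lower, so that the direction of the list depends on the filter. CDC25A, a phosphatase of the cell cycle, was at 2.25 and 23.4 FPKM, HMGA1, a chromatin protein, at 380 and 429 FPKM, and IGF2BP1, an oncofetal RNA-binding protein, at 37.8 and 6.84 FPKM. CDC25A and IGF2BP1 had the opposite direction in miR-143 cells (log2 ratios −0.63 and 0.88).

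**Figure D3:**
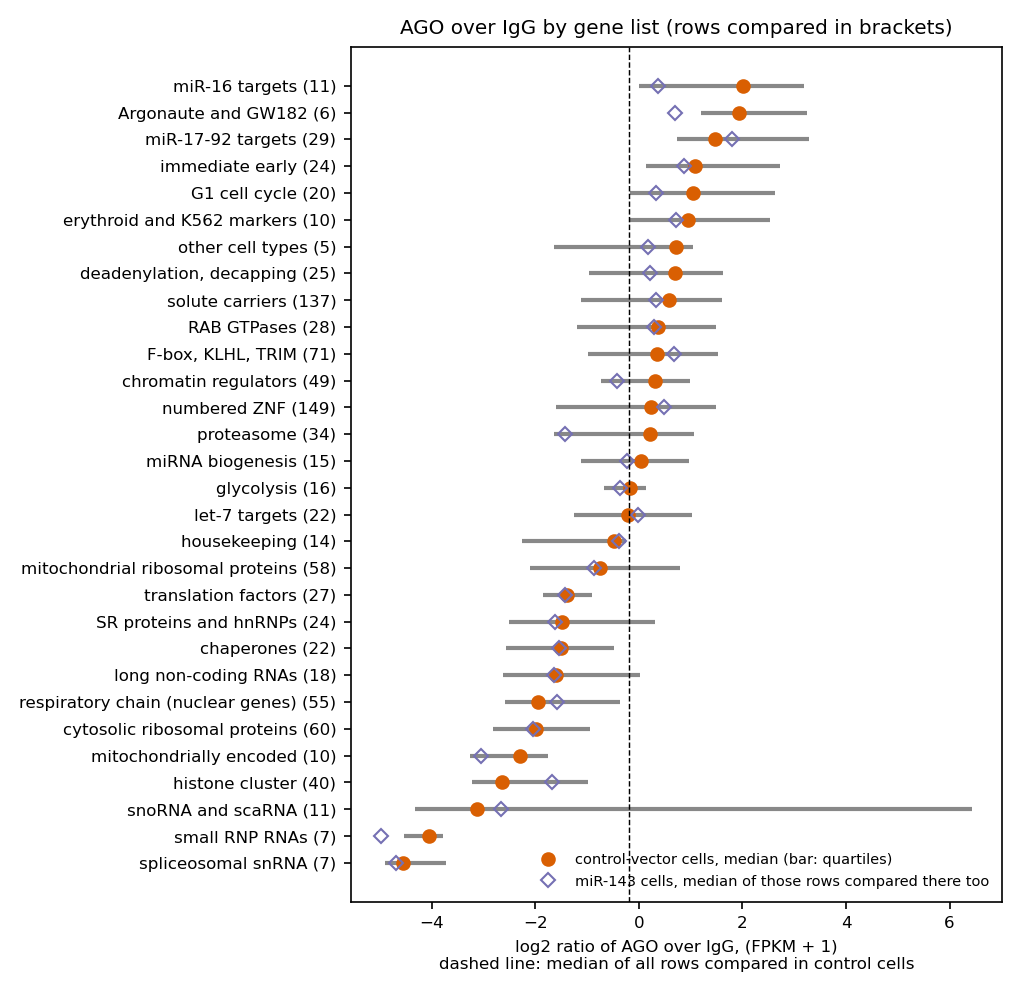
Median log2 ratio of AGO over IgG for each gene list with 5 or more rows compared, in control cells (filled circles, with bars from the lower to the upper quartile) and, for those of the rows compared there too, in miR-143 cells (open diamonds). Targets of miR-16 and miR-17-92 and the Argonaute and GW182 genes have the highest medians in control cells, between 1.46 and 2.02, and small RNP RNAs and spliceosomal snRNAs the lowest, at −4.05 and −4.55.

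Sites for the seeds of 10 miRNA families were looked up in the longest 3′ UTR of 7137 coding genes, to see whether the ratio followed them. The known targets above were not removed from these genes. The mature miRNAs of the families with target lists above, and miR-143 as the miRNA of the study, are shown in the RefSeq sequence (GRCh38.p14) with bases 2 to 8, the seed, in capitals. The levels of these miRNAs were not measured in these libraries.
hsa-miR-19b-3p: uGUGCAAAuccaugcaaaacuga
hsa-miR-17-5p: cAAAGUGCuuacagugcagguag
hsa-miR-16-5p: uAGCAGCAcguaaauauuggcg
hsa-miR-92a-3p: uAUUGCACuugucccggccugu
hsa-let-7a-5p: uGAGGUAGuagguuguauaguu
hsa-miR-143-3p: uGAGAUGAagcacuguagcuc

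A site is the 7-base complement of the seed on the transcript strand, TTTGCAC for miR-19, GCACTTT for miR-17, TGCTGCT for miR-16, GTGCAAT for miR-92, CTACCTC for let-7 and TCATCTC for miR-143. The miR-19 and miR-17 sites can overlap by 4 bases, and the miR-16 and miR-103 sites share letters too. For genes with high ratios named above, 1 site each is shown with the bases around it, in the direction of the mRNA and with the site in capitals (GRCh38, 3′ UTR of GENCODE 29). The miR-19 sites of SOCS3, SOCS1 and TNFRSF12A end in an A opposite the first base of the miRNA and are thus 8mers, while the miR-17 site of E2F1 is 1 of 2.
SOCS3, miR-19, chr17:78356850-78356871, minus strand: aatccaagtcaaacTTTGCACa
SOCS1, miR-19, chr16:11254530-11254551, minus strand: atatacccagtatcTTTGCACa
TNFRSF12A, miR-19, chr16:3022079-3022100, plus strand: aaggaactgcagcaTTTGCACa
E2F1, miR-17, chr20:33676338-33676359, minus strand: ggggggctctaactGCACTTTc
TNRC6A, miR-17, chr16:24824485-24824506, plus strand: ccaggacgggccctGCACTTTg
XPO5, miR-16, chr6:43523401-43523422, minus strand: ccactgagccctttTGCTGCTg
BTG2, miR-92, chr1:203308483-203308504, plus strand: agttctcagtcactGTGCAATa
A match to these letters is a description and does not show that the site is bound.

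Genes with a miR-19 site showed the largest difference. The 1128 genes with a site (15.8% of those searched) had a median log2 ratio of 0.30 and the 6009 without one of −0.23, a difference of 0.53. At least 2-fold higher values were found for 40.6% and 32.8% of them. The differences were 0.45 for both miR-16 (1877 genes with a site) and miR-17 (1809 genes), 0.29 for let-7, 0.26 for miR-103, 0.20 for miR-92 and 0.14 for miR-30. They were −0.02 for miR-221 and miR-26 alike. For miR-143, whose vector these cells do not carry, the 1017 genes with a site differed by 0.12.

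Genes with a miR-19 site had longer 3′ UTRs (median 2948.5 against 1153 bases) of lower GC content (40.5% against 45.2%). Site genes of the other families had longer 3′ UTRs too, while their GC content was lower except for miR-16 (45.0% against 43.8%). Within quintiles of 3′ UTR length the miR-19 difference ranged from 0.31 to 1.91, the latter with 35 site genes, and within quintiles of GC content from 0.71 to 1.23. Within quintiles of mean level it was −0.08 in the lowest quintile and from 0.41 to 0.82 in the others. In miR-143 cells it was 0.49, and over genes with a mean of 20 FPKM or more in control cells it was 0.89, but it was 0.12 without a filter on low rows. Among the longest 3′ UTRs the difference was −0.20 for let-7 (377 site genes), −0.15 for miR-92 (465) and −0.22 for miR-30 (586). There it was 0.16 for miR-17, 0.31 for miR-103, 0.34 for miR-19 and 0.39 for miR-16. In miR-143 cells the difference was 0.01 for let-7, 0.04 for miR-103 and −0.03 for miR-30, against 0.20 for miR-16, 0.33 for miR-17 and 0.35 for miR-92. For the miR-143 site it was −0.15 over the genes with a mean of 20 FPKM or more in control cells.

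**Figure D4:**
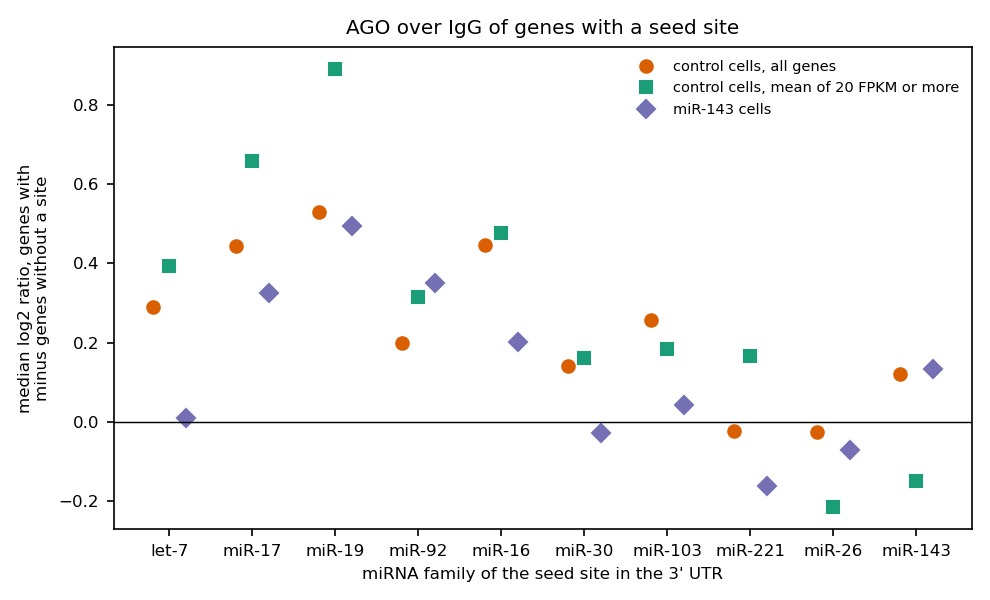
Median log2 ratio of AGO over IgG of genes with a seed site minus that of genes without one, for 10 miRNA families, in control cells (circles), in control cells over genes with a mean of 20 FPKM or more (squares) and in miR-143 cells (diamonds). The miR-19 family has the highest value in each of the 3 sets, at 0.53, 0.89 and 0.49, while miR-26 lies below 0 in all of them.

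The ratio was also set against composition and length of the transcript. From the lowest to the highest quintile of 3′ UTR GC content (median 32.7% and 59.3% GC), the median log2 ratio went from −0.57 to 0.49, and the share of genes at least 10-fold lower from 6.44% to 0.980%. Over genes with a mean of 20 FPKM or more it went from −1.44 to 0.18. The corresponding values in miR-143 cells were −0.51 and 0.58 over all genes. By 3′ UTR length the medians went from −0.47 in the shortest to 0.13 in the longest quintile, and by coding length from −0.76 to 0.19. Across the 7137 genes the Spearman correlation of the ratio with GC content was 0.172 in control cells and with coding length 0.122, as a description of genes that share 2 averages.

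Length and GC content were then crossed. Genes with short 3′ UTRs of low GC content had a median of −0.98 (299 genes), whereas those with long 3′ UTRs of high GC content had one of 1.30 (86 genes). Within the highest GC quintile the median went from −0.15 to 1.30 with length. GC content also went with the level itself, with a Spearman correlation of 0.348 for control_AGO and 0.125 for control_IgG.

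**Figure D5:**
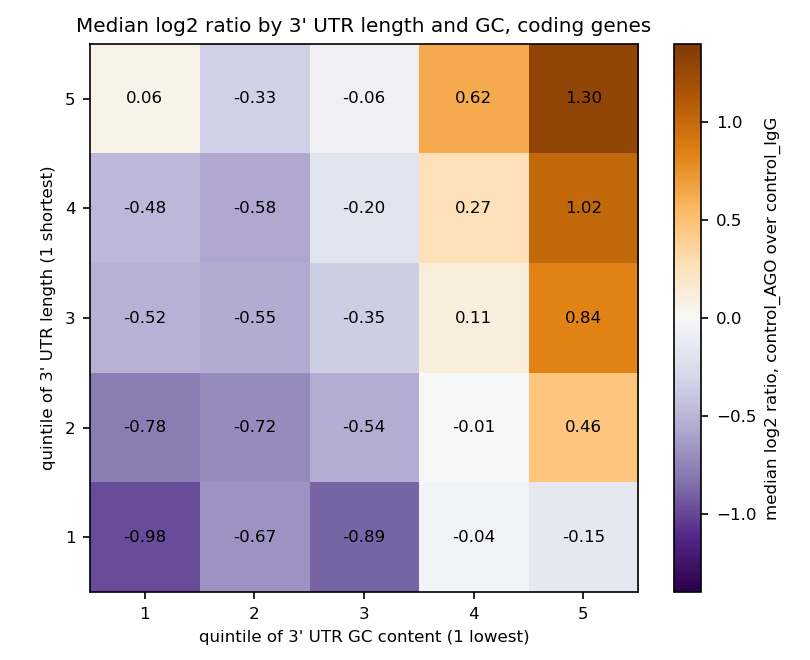
Median log2 ratio of control_AGO over control_IgG for 7137 coding genes in 25 fields, by quintile of 3′ UTR GC content (horizontal) and quintile of 3′ UTR length (vertical), with the value printed in each field. The values go from −0.98 in the field of short, GC-poor 3′ UTRs to 1.30 in that of long, GC-rich ones.

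In control cells, growth response and cell cycle genes lay mostly on the side of AGO2. Of 24 immediate early genes, which respond within minutes to growth signals, 14 were at least 2-fold higher (58.3%, against 34.5% of all rows). At least 2-fold lower were 2 (8.33%, against 36.2%), and 6 were at least 10-fold higher (25%, against 4.38%). The mock value was 0 for 7 of the 24. FOSL1 (22.4 FPKM in control_AGO) and DUSP5 (20.8 FPKM), a phosphatase of ERK, were listed at 0 in control_IgG and were higher in miR143_AGO than in miR143_IgG too. JUND was at 20.6 and 44.9 FPKM and PIM1, a survival kinase, at 176 and 298 FPKM. MYC, among the highest of the list, was at 159 FPKM in control_IgG and 147 FPKM in control_AGO, and ZFP36L1, which destabilises mRNA, at 20.3 and 3.43 FPKM. JUND, MYC and ZFP36L1 had the opposite direction in miR-143 cells, with log2 ratios of −0.80, 0.30 and 2.05. Of 20 genes of the G1 cell cycle, 11 were at least 2-fold higher (55%) and 3 lower (15%), and 5 were listed at 0 in control_IgG. This list shares members with the target lists above, among them E2F1, CDKN1A and WEE1, and is not a separate set of genes. In miR-143 cells the median log2 ratio of the 20 genes was only 0.32. In both populations 9 of them had a ratio above 0 and 4 one below 0. Over the 3 with a mean of 20 FPKM or more, namely CCND3, E2F4 and CDK4, the directions differed, with CDK4 at 156 and 31.1 FPKM and E2F4 at 52.4 and 38.0 FPKM.

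The cell line was checked against its markers in the same tables. Of 10 erythroid and K562 marker rows, 5 were at least 2-fold higher in control_AGO and 1 was lower. KLF1, a factor of globin transcription, was at 41.9 FPKM in control_IgG and 281 FPKM in control_AGO, and at 42.8 and 289 FPKM in miR-143 cells. LMO2 was at 7.91 and 96.4 FPKM, TAL1 at 6.84 and 30.1 FPKM, and GATA1, the master regulator of the lineage, at 55.3 and 73.2 FPKM. NFE2 was lower, with 38.7 and 9.004 FPKM. Of 19 markers of other cell types, 15 were listed at 0 in control_IgG and 15, not all of them the same, in control_AGO. LYZ, the lysozyme gene of myeloid cells, was the highest in control_IgG (6.27 FPKM, and 0 in control_AGO), and ITGAM, a myeloid integrin, was the highest in control_AGO (10.7 FPKM, and 4.66 FPKM in control_IgG).

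Large gene families spread widely around the median of all rows. Of 137 solute carriers, 58 were at least 2-fold higher (42.3%, against 34.5% of all rows) and 36 lower (26.3%, against 36.2%). SLC25A28, a mitochondrial iron importer, was listed at 0 in the mock precipitate but at 83.3 FPKM in control_AGO. RAB GTPases had 11 higher (39.3%) and 9 lower (32.1%) of 28, with RAB5B, a regulator of early endosomes, at 6.35 and 92.1 FPKM. The median of the RAB list relative to all rows was 0.56, but −0.49 with a mean of 5 FPKM or more. Numbered zinc finger genes had 62 higher (41.6%) and 50 lower (33.6%) of 149. F-box, KLHL and TRIM genes had 24 higher (33.8%) and 18 lower (25.4%) of 71. FBXW11, a substrate receptor of an SCF ubiquitin ligase, was at 0.412 and 36.4 FPKM, but lower in the AGO2 precipitate of miR-143 cells (27.4 and 10.6 FPKM). Among 49 chromatin regulators, 12 were higher (24.5%) and 9 lower (18.4%), both below the shares of all rows. NCOA3, a nuclear receptor coactivator, was at 144 and 12.6 FPKM in control cells against 3.84 and 8.57 FPKM in miR-143 cells. The median of the chromatin list relative to all rows turned from 0.50 to −2.79 with a mean of 20 FPKM or more, where all 3 rows left were at least 2-fold lower.

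Several lists of basic cell functions lay mostly on the side of the mock precipitate. Of 60 cytosolic ribosomal protein rows, 44 were at least 2-fold lower in control_AGO (73.3%, against 36.2% of all rows) and 3 were higher, with a median of −1.80 relative to all rows. In miR-143 cells 54 of the 60 were below 0 as well. Besides RPS27, RPS27L and RPL26L1, RPL24 (311 and 622 FPKM) and RPL29 (623 and 678 FPKM) had a ratio above 0, RPL29 not so in miR-143 cells (log2 ratio −0.18), and RPL5 (296 and 24.7 FPKM) was among the lowest. Nuclear genes of the respiratory chain had 35 lower and 7 higher of 55, with COX7C at 124 and 10.02 FPKM and NDUFB3 at 83.4 and 2.87 FPKM. SDHC, a subunit of succinate dehydrogenase, was listed at 0 in the mock precipitate but at 35.2 FPKM in control_AGO. The 58 mitochondrial ribosomal proteins had 28 lower and 14 higher. Their median relative to all rows turned from −0.56 to 0.23 with a mean of 20 FPKM or more, and MRPL17 (24.1 and 90.96 FPKM) was on the side of AGO2 in both populations.

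Histone cluster genes had 29 lower and 2 higher of 40, a median of −2.45 relative to all rows. HIST1H2BL had a ratio above 0, with 201 FPKM in control_IgG and 369 FPKM in control_AGO, as it was in miR-143 cells (224 and 541 FPKM). Of 27 translation factors, 18 were at least 2-fold lower and 0 higher, with EIF3H at 44.2 and 3.83 FPKM, EIF3M at 131 and 20.7 FPKM, and EIF4A2 at 56.6 and 69.1 FPKM. SR proteins and hnRNPs had 13 lower and 5 higher of 24, with SRSF2 at 54.0 and 1.93 FPKM and HNRNPUL1 at 12.1 and 50.6 FPKM, the latter with the opposite direction in miR-143 cells (log2 ratio −1.29). Chaperones had 14 lower and 1 higher of 22, with CCT8 at 53.7 and 2.25 FPKM. The exception was CCT2 (1.64 and 5.54 FPKM), which in miR-143 cells was at 108 FPKM in the mock and 13.6 FPKM in the AGO2 precipitate.

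By their medians, glycolysis and housekeeping mRNAs lay closer to equality, with single genes far from it. Of 16 glycolysis genes, 1 was at least 2-fold higher and 4 lower, with a median of 0.02 relative to all rows, and ALDOA was at 342 and 606 FPKM while LDHA was at 43.07 and 6.02 FPKM. Of 14 housekeeping genes, 2 were higher (GUSB with 6.68 and 34.8 FPKM, TUBA1C with 110.0 and 224 FPKM) and 4 lower, with a median of −0.30 relative to all rows. Among the lower ones were TBP (23.2 and 0.748 FPKM), YWHAZ (55.9 and 5.45 FPKM) and UBB (360 and 46.6 FPKM). Their log2 ratios in miR-143 cells were −2.22, −2.31 and −2.15. ACTB was at 262 and 324 FPKM, with log2 ratios of 0.31 in control and −0.31 in miR-143 cells. The 34 proteasome genes had 11 higher (32.4%) and 13 lower (38.2%), near the shares of all rows (34.5% and 36.2%). Relative to all rows their median turned from 0.41 to −0.79 with a mean of 20 FPKM or more. Their median log2 ratio was 0.22, against −1.42 in miR-143 cells, with PSMG2, an assembly chaperone, at 23.0 and 160 FPKM and PSME1 at 31.98 and 2.81 FPKM.

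Long non-coding RNAs of a list of known members were mostly lower in control_AGO, with 10 of 18 at least 2-fold lower and 3 higher. The snoRNA host genes SNHG5 (640 and 35.04 FPKM) and GAS5 (705 and 107 FPKM), and MEG3 (217 and 18.9 FPKM), were on the side of the mock precipitate in both populations. LINC00657 (NORAD), a cytoplasmic RNA that binds Pumilio proteins, was at 28.8 and 103 FPKM, and H19, a host of miR-675, was listed at 0 in the mock precipitate but at 30.7 FPKM in control_AGO. Both were higher in the AGO2 precipitate of miR-143 cells as well. The host transcript of the miR-17-92 cluster, MIR17HG, was at 5.05 and 0.391 FPKM.

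The study followed MAPK7, which encodes ERK5, as a target of miR-143, with GAPDH as an unbound control. Without the miR-143 vector MAPK7 was at 6.69 FPKM in control_IgG and 36.9 FPKM in control_AGO, a log2 ratio of 2.30 and thus 2.49 above the median of all rows. In miR-143 cells both values of MAPK7 were lower, with 0.0988 FPKM in the mock and 14.2 FPKM in the AGO2 precipitate (log2 ratio 3.79). Of the 10 seed families, its 3′ UTR of 313 bases holds a site for miR-143 alone. GAPDH was at 566 and 467 FPKM, a log2 ratio of −0.28, or −0.09 relative to all rows.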

How the data were processed

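Messenger RNA bound to AGO2 was sequenced after RNA immunoprecipitation (Sigma-Aldrich kit) from K562 cells. Per the labels, ribosomal RNA was removed and cDNA was made with random primers, whereas the study's methods name a TruSeq RNA kit. Sample titles gave the groups. The authors processed the paired reads with TopHat and Cufflinks (build hg38, per the submitters' processing notes) and deposited 1 table per group with 1 average FPKM per gene row. Program versions, annotation and library sizes were not given in the sources used here, so the depth and the precision of each value are unknown. A limma fit was planned for the case of single-experiment values, and the averages allowed ratios only.

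Rows were joined by their order, which was identical in all tables, and ratios were computed with a pseudocount of 1 FPKM (Python 3.11.15, pandas 2.3.3, numpy 2.4.6), which understates the change of low genes. The script was tested on simulated data. Fold thresholds were 10 and 2. The study also used 10-fold, but for AGO2 binding in miR-143 cells against control cells, so its count and those given here differ in kind. Rows joining several names (1011) were kept in the counts but not assigned to a gene. Classes, coordinates and 3′ UTRs came from GENCODE 29 (GRCh38) by symbol, which matched 91.1% of 8908 rows of 1 name, 246 through the symbol of another release, with a 3′ UTR for 99.7% of coding rows. Coding genes with 1 row entered the analysis of 3′ UTRs.

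Genes were named by rule: the 10 highest and 10 lowest ratios among coding rows of 5 FPKM or more in both groups, the highest levels in control_AGO, all Argonaute, GW182 and biogenesis genes, up to 3 members at each end of every other list with 5 FPKM or more in either group, MAPK7 and GAPDH. Any other list member was chosen after seeing its value. The comparison and the lists were chosen with earlier results of these data known. Results were recomputed with pseudocounts of 0.1 and 0.01, with other minimum values, 3 scalings and the summing of rows with one name. A few genes that this rule names are not reported here.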

Additional observations from a re-analysis of the deposited data

How the results depend on the processing

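No paired analysis was possible because 1 average per group was all that could be used, and leaving out single replicates was not run for the same reason. Values of lists and classes are medians relative to all rows, and a value was taken as unchanged within 1.5-fold. The cause of the changes was not tested, except that a filter removes rows.

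Of 202 named genes, 58 moved with a pseudocount of 0.1 and 58 with 0.01. Filters leave the ratio of a single gene as it is, so that they say nothing about its stability. The miR-19 seed difference ranged from 0.12 without a filter to 0.89 with a mean of 20 FPKM or more, that of miR-17 from 0.12 to 0.66 and that of miR-16 from 0.12 to 0.48. That of miR-143 turned to −0.0031 without a filter and to −0.15 with a mean of 20 FPKM or more, and that of miR-221 turned to 0.17 in the latter and to 0.040 with 1 FPKM or more in both groups. With a pseudocount of 0.1, 2284 rows were 10-fold higher in control_AGO and 1361 lower, the Argonaute and GW182 genes were at 3.19 and the miR-17-92 targets at 2.35. With 0.01 these were 2310, 1465, 3.39 and 2.52. With 1 FPKM or more in both groups, 94 rows were 10-fold higher and 201 lower, 1089 were 2-fold higher and 2200 lower, the spliceosomal snRNAs were at −3.70 and the miR-16 targets at 0.50. With a mean of 5 FPKM or more, 1271 rows were 2-fold higher and 2336 lower, the Argonaute and GW182 genes were at 3.03, the miR-17-92 targets at 2.82, the immediate early genes at 2.30, the miR-16 targets at 0.71, the let-7 targets turned to 0.59, the RAB GTPases to −0.49 and the deadenylation and decapping genes to −0.082, and the highest minus the lowest quintile of GC content was 1.76. Without a filter, the long non-coding RNAs turned to 0.031, pseudogenes were at −0.024, the miR-16 targets at 1.11, the immediate early genes at 0.59, the markers of other cell types at 0.22 and the GC difference at 0.31.

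With a mean of 20 FPKM or more, chosen after seeing the data, 128 rows were 10-fold higher and 195 lower, 521 were 2-fold higher and 944 lower, the miR-17-92 targets were at 3.92, deadenylation and decapping at 1.73, miRNA biogenesis at 0.89, the G1 cell cycle at 0.17, chaperones at −0.47 and spliceosomal snRNAs at −3.56, while mitochondrial ribosomal proteins turned to 0.23, the proteasome to −0.79 and chromatin regulators to −2.79. Scaling moved the balance of directions. With the same median 523 rows were 10-fold higher and 358 lower, with the same upper quartile 581 and 314, and with the same coding sum 578 and 314, against 434 and 494 as deposited.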
